A study of Mus musculus and Rattus norvegicus with 32 samples.

Results

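The CCN matricellular and Hippo-YAP genes, 10 in all, were followed through 32 heart and cardiomyocyte RNA-seq libraries, namely the CCN genes Ccn1, Ccn2, Ccn3, Ccn4 and Ccn5 and the Hippo-YAP genes Yap1, Wwtr1, Tead1, Lats2 and Amotl2. They were taken by symbol, 1 row each, from 4 gene tables, where all 10 were found among 55487 rows of each of the 3 mouse tables and 32883 rows of the rat table. METTL5, the methyltransferase that places an m6A mark on 18S ribosomal RNA, was deleted in mice or overexpressed in rat cells in the groups used here. The paper also reports RNA-seq of rat cardiomyocytes with METTL5 knocked down by siRNA, which were not analysed here. All groups held 4 libraries.

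At 1 month, hearts of control mice and of METTL5-KO mice, which lacked the gene in the whole body, were compared, and all mice were C57BL/6. At 3 months, hearts of controls and of METTL5-cKO mice were compared, where cKO means that Myh6-Cre (αMHC-Cre), which is active in cardiomyocytes alone, removed floxed exons 2 to 4 of Mettl5, so that other cells of the heart kept the gene. In a further experiment the same 2 genotypes, labelled 3 months old, were studied 4 weeks after transverse aortic constriction (TAC), a surgical narrowing of the aorta that loads the left ventricle with pressure. No sham-operated libraries were analysed here. Neonatal rat ventricular cardiomyocytes (NRVMs) were from Sprague Dawley rats at postnatal day 2, with a short pre-plating step meant to remove fibroblasts. They were transduced with an adenovirus for GFP (AdGFP) or for human METTL5 (AdMETTL5). Both groups received 20 µM of the hypertrophic agonist phenylephrine (PE) for 24 h. Nothing in the labels ties each library to its own animal or culture, so p-values measure the spread between these libraries only.

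CCN proteins are secreted into the matrix around cells, where they bind integrins, LRP receptors and growth factors rather than building fibers themselves. Ccn1 and Ccn2 are known as rapid targets of YAP and TAZ, a pair of transcription coactivators encoded by Yap1 and Wwtr1 that bind DNA through TEAD factors such as Tead1. The Hippo kinases, of which Lats2 encodes one, phosphorylate YAP and TAZ and keep them out of the nucleus, and angiomotin-like 2, encoded by Amotl2, binds YAP at cell junctions, while Lats2 and Amotl2 are themselves YAP/TAZ targets. In the heart Ccn2 is best known as a marker of fibrosis and pressure overload, and Ccn5, which lacks the C-terminal domain of its relatives, is known to oppose Ccn2.

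Total counts per library ran from 19899033 to 21804907 in hearts. In NRVMs they ran from 17344430 to 18085339 under AdGFP and from 14324700 to 14642431 under AdMETTL5, so depth and treatment went together. The deposited estimated counts were scaled by TMM and written as CPM, the counts scaled to a common library total. The gene-level count of Mettl5 was not called different between the libraries labelled as knockouts and their controls (edgeR adjusted p from 0.874 to 0.973 in the 3 comparisons): the 1-month controls had 5.45 CPM ± 0.742 (SD, n = 4) and METTL5-KO 6.36 ± 0.904, the 3-month controls 7.11 ± 0.489 and METTL5-cKO 6.28 ± 0.706, and the TAC controls 6.52 ± 0.717 and METTL5-cKO TAC 6.44 ± 0.750. These counts cover the whole gene, in METTL5-cKO hearts exons outside the floxed ones included. The paper does not state which part of the gene METTL5-KO mice lack. The counts therefore do not check the labels, and the groups are named here as labelled. For METTL5-cKO hearts the paper reports that reads of the floxed exons were almost undetectable. Rat Mettl5 had 17.0 CPM ± 0.774 under AdGFP and 21.2 ± 1.76 under AdMETTL5, a log2 difference of 0.32 with a 95% confidence interval (CI) from 0.16 to 0.47. Whether reads of the human transgene were counted as rat Mettl5 was not tested.

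On the GRCm38 mouse genome, in the GENCODE vM21 annotation, Ccn1 (ENSMUSG00000028195) lies at chr3:145646976-145649981 on the minus strand and Wwtr1 (ENSMUSG00000027803) at chr3:57455649-57575910 on the minus strand. Ccn2 (ENSMUSG00000019997) lies at chr10:24595442-24598683 on the plus strand and shares exonic bases with the antisense gene Gm15270. Ccn3 (ENSMUSG00000037362) and Ccn4 (ENSMUSG00000005124) lie on chromosome 15, plus strand, at 54745702 to 54754039 and at 66891320 to 66923201. Ccn5 (ENSMUSG00000027656) lies at chr2:163820861-163833146 on the plus strand. Yap1 (ENSMUSG00000053110), at chr9:7931999-8004596 on the minus strand, overlaps exons of Gm20416 on the other strand, and Amotl2 (ENSMUSG00000032531) lies at chr9:102716672-102733418 on the plus strand with no overlapping gene. Tead1 (ENSMUSG00000055320) lies at chr7:112679318-112906807 on the plus strand. Lats2 (ENSMUSG00000021959), at chr14:57689662-57758388 on the minus strand, shares exonic bases with Gm49361 on the same strand. Whether the counting used strand is not given in the sources used here, so reads of Ccn2 and Gm15270, of Yap1 and Gm20416 and of Lats2 and Gm49361 may not have been told apart.

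TEAD factors recognise the letters GGAATG, so these letters were searched on both strands in the 250 bases before each annotated start. RefSeq promoters (GRCm38.p6) were at hand for Ccn1, Yap1, Wwtr1, Lats2 and Amotl2 and were not searched for Ccn2, Ccn3, Ccn4, Ccn5 and Tead1. The 250 bases of Ccn1, a YAP/TAZ target, and of Yap1 and Wwtr1, the coactivator genes, are shown 5′ to 3′ on the gene's strand. The match is in capitals. They span chr3:145649986-145650235, chr9:8004597-8004846 and chr3:57575911-57576160, all on the minus strand.
Ccn1: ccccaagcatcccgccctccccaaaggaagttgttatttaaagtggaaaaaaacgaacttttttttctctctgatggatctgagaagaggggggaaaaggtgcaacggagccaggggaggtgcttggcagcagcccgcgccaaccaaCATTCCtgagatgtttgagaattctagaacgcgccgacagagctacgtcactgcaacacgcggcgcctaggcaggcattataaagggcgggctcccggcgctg
Yap1: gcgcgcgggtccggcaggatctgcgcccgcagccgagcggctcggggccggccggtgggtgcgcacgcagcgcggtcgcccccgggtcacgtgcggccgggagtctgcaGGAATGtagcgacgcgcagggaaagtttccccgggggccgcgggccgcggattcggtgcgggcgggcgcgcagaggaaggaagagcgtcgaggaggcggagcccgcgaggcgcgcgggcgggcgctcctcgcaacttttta
Wwtr1: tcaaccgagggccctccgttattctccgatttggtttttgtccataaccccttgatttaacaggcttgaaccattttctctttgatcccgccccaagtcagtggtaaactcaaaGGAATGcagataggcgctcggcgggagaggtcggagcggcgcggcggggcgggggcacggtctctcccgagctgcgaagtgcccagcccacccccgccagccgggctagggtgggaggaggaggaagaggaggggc
The match began at position -103 before the start of Ccn1, where it reads on the other strand, at -141 for Yap1 and at -136 for Wwtr1, and a further match lay at -65 for Amotl2. The 250 bases before either start of Lats2 held none. The same letters were in 12.6% of 32851 promoters of this length, so a match in any single gene is common. The AP-1 letters TGACTCA or TGAGTCA, which occur in 4.46% of these promoters, and the serum response CArG box, which occurs in 1.47%, had no match in these 5 genes, which says nothing about the factors themselves.

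In unstressed 3-month control hearts the order of the levels, as CPM per kilobase of summed exons, was led by Ccn1 (14.9 ± 3.52, SD, n = 4), Ccn2 (12.9 ± 5.21) and Wwtr1 (11.9 ± 1.20), whose ranges overlapped. Tead1 (6.57 ± 1.75), Amotl2 (5.64 ± 0.98), Yap1 (4.95 ± 0.58) and Lats2 (3.69 ± 0.46) followed, each overlapping the next in its range except Yap1 and Lats2. Ccn5 (1.52 ± 0.22), Ccn3 (0.62 ± 0.15) and Ccn4 (0.12 ± 0.02) were lowest and did not overlap. With the longest transcript as the length, Yap1 (8.67) stood above Amotl2 (8.02). In METTL5-cKO TAC hearts, the level per kilobase of Ccn2 was 171, far above Ccn1 at 41.5 and Ccn5 at 23.3, while Ccn3 was at 0.61 and Ccn4 at 0.33. Ccn6, the remaining family member, had 0 counts in all libraries but one 3-month control library with 4 and one 3-month METTL5-cKO library with 6, and was not tested in any comparison.

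**Figure D1:**
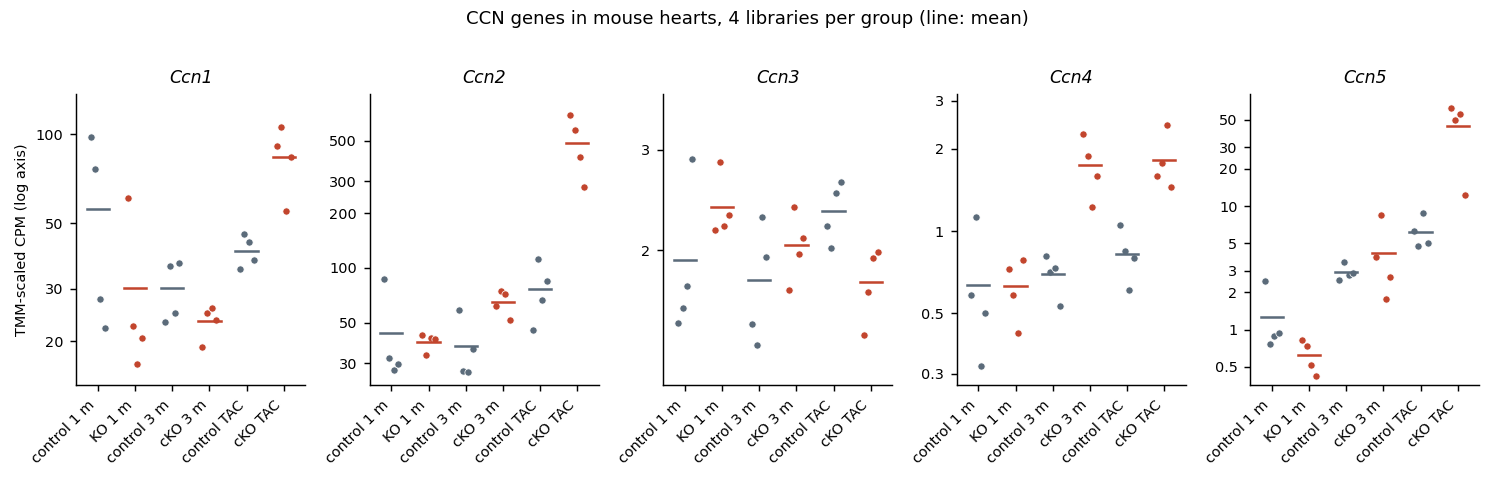
TMM-scaled CPM (log axis) of the 5 CCN genes in each of the 24 mouse heart libraries, with 4 points per group and a line at the group mean, controls in gray and METTL5-KO or METTL5-cKO in red. Ccn2 reached 279 to 696 CPM and Ccn5 12.3 to 62.3 CPM in METTL5-cKO TAC hearts, above all libraries of the other 5 groups.

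After TAC, the libraries labelled METTL5-cKO had more RNA of 4 CCN genes than their controls. Ccn2, encoding connective tissue growth factor, had 45.7, 111, 66.7 and 84.4 CPM in the 4 control TAC libraries and 696, 571, 407 and 279 CPM in METTL5-cKO TAC. The groups were far apart, and library 4 of METTL5-cKO TAC, with 279 CPM, was the nearest to the controls. The rise was 6.26-fold (log2 2.65, SE 0.332, 95% CI 1.90 to 3.39), with an adjusted p of 0.00546 by the quasi-likelihood test of edgeR, corrected after Benjamini-Hochberg over 16340 genes, which is the test used for every adjusted p below unless another is named.

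Ccn5, the family member without the C-terminal domain, had 6.27, 4.74, 8.83 and 5.02 CPM in control TAC hearts and 62.3, 49.2, 55.5 and 12.3 CPM in METTL5-cKO TAC hearts. Libraries 1 to 3 were at about the same high level and library 4 again stood between them and the controls. Ccn5 rose 7.14-fold (log2 2.84, SE 0.448, 95% CI 1.83 to 3.84, adjusted p = 0.00953). Without library 4 the log2 difference was 3.15 for Ccn5 and 2.85 for Ccn2.

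Ccn1, which encodes an integrin ligand induced rapidly by serum or stretch, had 35.0, 46.0, 43.1 and 37.5 CPM in control TAC hearts and 91.1, 105, 54.8 and 84.0 CPM in METTL5-cKO TAC hearts. Its groups did not overlap, and the rise was 2.05-fold (log2 1.04, SE 0.182, 95% CI 0.63 to 1.45, adjusted p = 0.0127). Ccn4, a WNT-induced family member, was near the lower end of what could be counted, at 12 to 22 counts per library in control TAC hearts and 30 to 62 in METTL5-cKO TAC hearts. Its levels were 0.605 to 1.05 CPM and 1.45 to 2.45 CPM, a rise of 2.18-fold (log2 1.12, SE 0.226, adjusted p = 0.0174). This call was lost without control TAC library 2 (adjusted p = 0.0503), control TAC library 4 (0.0599) or METTL5-cKO TAC library 2 (0.0514).

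Ccn3, known in other tissues as a counterpart that is high where Ccn2 is low, had 2.20, 2.02, 2.52 and 2.63 CPM in control TAC hearts and 1.42, 1.69, 1.94 and 1.99 CPM in METTL5-cKO TAC hearts. All of its METTL5-cKO libraries were below the lowest control library, but the difference of -0.43 on the log2 scale (SE 0.157, 95% CI -0.78 to -0.08) had an adjusted p of 0.0991. So 4 of the 5 CCN genes were called, all higher, and the fifth was not.

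The Hippo-YAP genes in the same hearts differed by at most 1.31-fold. Tead1, the main TEAD factor of heart muscle, had 83.5, 84.1, 61.3 and 80.1 CPM in control TAC and 109, 112, 99.6 and 88.6 CPM in METTL5-cKO TAC. The groups did not overlap, but the log2 difference of 0.39 (SE 0.117, 95% CI 0.13 to 0.65) had an adjusted p of 0.0569. Its adjusted p was 0.0130 in DESeq2, 0.0271 with scaling by library size alone, 0.0480 with genes of at least 10 counts in each library and 0.0200 without METTL5-cKO TAC library 4. The call thus depended on the setting.

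Yap1 had 41.9, 43.8, 42.1 and 42.9 CPM in control TAC and 50.5, 49.2, 49.8 and 42.8 CPM in METTL5-cKO TAC, where library 4 alone fell among the controls. Its log2 difference was 0.16 (95% CI -0.00053 to 0.32, adjusted p = 0.163), and without that library it was 0.21 with an adjusted p of 0.0306. Wwtr1 had 53.5 to 66.5 CPM in control TAC and 61.9 to 75.5 CPM in METTL5-cKO TAC, a log2 difference of 0.14 (95% CI -0.07 to 0.34, adjusted p = 0.358). Lats2 was at 20.5 to 26.5 against 19.8 to 21.4 CPM (log2 -0.16, 95% CI -0.37 to 0.05, adjusted p = 0.268). Amotl2 was at 32.8 to 38.8 against 32.9 to 47.6 CPM (log2 0.06, 95% CI -0.21 to 0.33, adjusted p = 0.779). The intervals of Yap1, Wwtr1, Lats2 and Amotl2 reached no further than 0.37 from 0 on the log2 scale, while those of Ccn2 and Ccn5 began above 1.8.

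In this comparison 4 of the 10 genes were called, against 12.7% of all genes tested, and all 4 were called higher, against 6.57%, and changed by over 2-fold, against 2.9%. For 6 of the 10 the libraries of both groups were fully apart, against 18.7% of all genes tested. The median log2 difference of the 10 was 0.27, beside -0.0035 over all genes. Leaving out 1 library at a time gave 3 to 6 called genes, with 6 when METTL5-cKO TAC library 4 was left out.

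**Figure D2:**
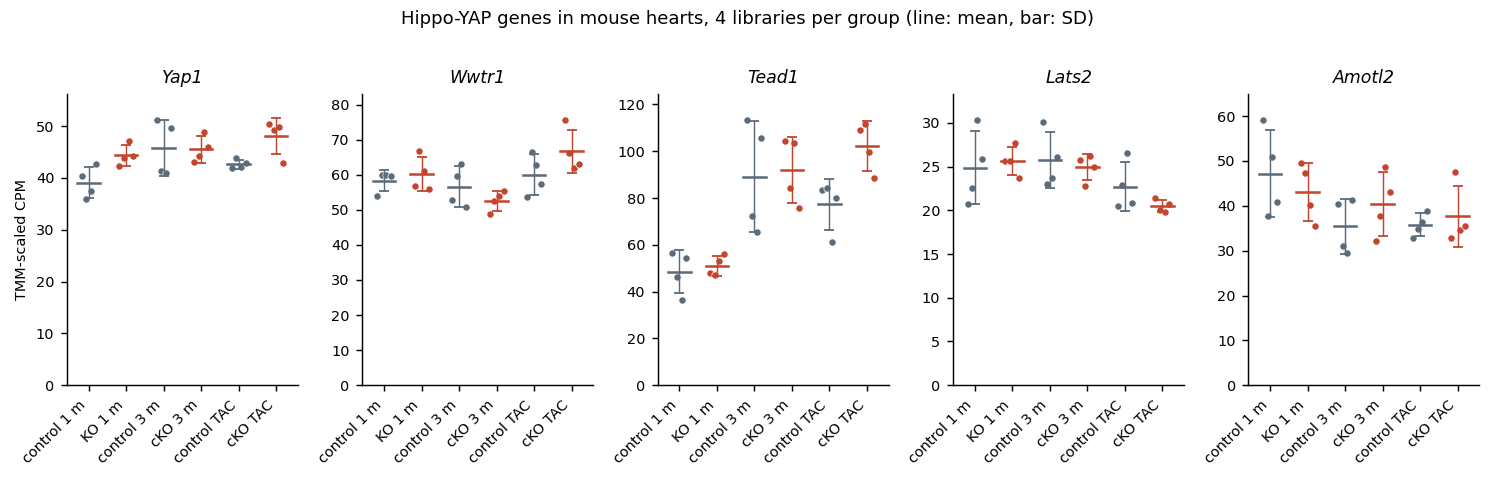
TMM-scaled CPM (axis from 0) of the 5 Hippo-YAP genes in each of the 24 mouse heart libraries, with a line at the mean of 4 libraries and a bar for the SD, controls in gray and METTL5-KO or METTL5-cKO in red. Tead1 was at 88.6 to 112 CPM in METTL5-cKO TAC against 61.3 to 84.1 CPM in control TAC hearts, and in METTL5-cKO hearts Wwtr1 was above and Lats2 below its unstressed range after TAC.

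The same TAC hearts differed in genes of other cell types. Whole hearts were measured, so fewer or more cells of a type and less or more RNA per cell cannot be told apart. Of 8 fibroblast markers 5 were called higher and none lower in METTL5-cKO TAC against control TAC, where 6.57% of all genes were called higher, with a summed level of 1331 to 2377 CPM against 1057 to 1199 CPM. Of 5 tested markers of activated fibroblasts 3 were called higher, namely Postn (log2 3.64), Comp (log2 4.60) and Tnc (log2 1.67). Fap (log2 -0.23, adjusted p = 0.285) and Acta2 (log2 -0.12, adjusted p = 0.794) were not called. The sums of the activated fibroblast markers were 900, 582, 599 and 154 CPM in METTL5-cKO TAC libraries 1 to 4 against 71.4 to 110 CPM in control TAC. Library 4, lowest in Ccn2 and Ccn5, was therefore also lowest in these markers. Cthrc1, a further activated fibroblast marker, was at 0 counts in control TAC and 3-month control hearts.

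Of 8 cardiomyocyte markers 3 were called lower, with sums of 24316, 24612, 25824 and 31787 CPM in METTL5-cKO TAC and 34602 to 38538 CPM in control TAC, and the highest of the METTL5-cKO sums was that of library 4. Of 6 macrophage markers 3 were called higher, of 7 endothelial markers 5 were called lower and of 6 markers of smooth muscle cells and pericytes 2 were called lower. Of all genes tested in METTL5-cKO TAC against control TAC, 6.57% were called higher and 12.7% in either direction. None of the 3 tested epicardial markers was called. In METTL5-cKO hearts after TAC against unstressed ones, 5 of 8 fibroblast, 2 of 5 activated fibroblast and 4 of 6 macrophage markers were higher and 3 of 8 cardiomyocyte markers were lower with 1 higher, 1 of 6 markers of smooth muscle cells and pericytes was higher and 1 lower, and 1 of 7 endothelial markers was lower, where 19.1% of all genes were called. In controls after TAC 1 of 6 macrophage markers was higher, where 0.516% of all genes were called. No other marker was called there or between the genotypes at 1 or 3 months. At 3 months the fibroblast sums, though no marker was called, were 1130 to 1315 CPM in METTL5-cKO and 858 to 1066 CPM in controls. The cardiomyocyte sums were 32480 to 36295 CPM in METTL5-cKO and 37399 to 40728 CPM in controls. The sums of the other marker lists overlapped at that age. The part of these cell types in the CCN result was not tested.

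The next question was how the 10 genes differed between TAC and unstressed 3-month hearts within each genotype. The surgery and the experiment cannot be told apart here, since each of the 2 experiments held its own controls and was deposited as its own table. In controls, none of the 10 genes was called, against 0.516% of 17070 genes tested. Ccn2 was at 58.5, 27.1, 26.7 and 35.8 CPM in 3-month controls and at 45.7 to 111 CPM in TAC controls, a log2 difference of 1.05 (SE 0.313, 95% CI 0.39 to 1.72, adjusted p = 0.119). The ranges overlapped through 1 high unstressed library. DESeq2 gave Ccn2 an adjusted p of 0.0280, where 3.35% of the genes with an adjusted p were called.

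Ccn5 was at 2.52 to 3.54 CPM in 3-month controls and 4.74 to 8.83 CPM in TAC controls. It was the 1 gene of the 10 whose control groups did not overlap, against 11.6% of all genes, with a log2 difference of 1.08 (SE 0.491, adjusted p = 0.267), or an adjusted p of 0.0432 in a fit of these 2 groups alone. Ccn1 differed by 0.42 (95% CI 0.02 to 0.82, adjusted p = 0.261) and Ccn3 by 0.40 (95% CI 0.03 to 0.77, adjusted p = 0.253). The unadjusted p was under 0.05 for 4 of the 10, namely Ccn1, Ccn2, Ccn3 and Ccn5. The 5 Hippo-YAP genes and Ccn4 lay between -0.21 and 0.25 on the log2 scale, with adjusted p from 0.342 to 0.983.

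In the libraries labelled METTL5-cKO, 4 genes were called higher after TAC than in unstressed hearts, against 10.2% of all genes called higher and 19.1% called in either direction. Ccn5 went from 3.88, 8.45, 1.76 and 2.69 CPM to 12.3 to 62.3 CPM, which was 10.7-fold (log2 3.41, SE 0.476, 95% CI 2.40 to 4.42, adjusted p = 0.000271). Ccn2 went from 61.8, 74.4, 71.9 and 51.6 CPM to 279 to 696 CPM, which was 7.50-fold (log2 2.91, SE 0.329, 95% CI 2.21 to 3.60, adjusted p = 6.88e-05). Ccn1 went from 19.2, 24.9, 25.9 and 23.6 CPM to 54.8 to 105 CPM, which was 3.57-fold (log2 1.84, SE 0.193, 95% CI 1.43 to 2.25, adjusted p = 4.41e-05). This comparison shares the METTL5-cKO TAC libraries with the one between genotypes after TAC. Ccn1, Ccn2 and Ccn5 were the members called and over 2-fold, against 4.84% of all genes.

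Wwtr1, encoding TAZ, was the fourth called gene, at 48.7, 52.5, 53.9 and 55.2 CPM in unstressed and 75.5, 66.2, 61.9 and 63.0 CPM in TAC hearts of METTL5-cKO mice. Its rise was 1.26-fold (log2 0.34, SE 0.0914, 95% CI 0.14 to 0.53, adjusted p = 0.0167), and the call was lost without METTL5-cKO 3-month library 1 (adjusted p = 0.0528) or METTL5-cKO TAC library 1 (0.0669). Lats2 went the other way, from 22.8 to 26.2 CPM in unstressed to 19.8 to 21.4 CPM in TAC hearts. These groups did not overlap, and the log2 difference of -0.29 (95% CI -0.49 to -0.08) had an adjusted p of 0.0535, which was 0.0317 in DESeq2, 0.0473 with DESeq2 size factors in edgeR, 0.0495 with at least 10 counts in each library and 0.0326 in a fit of the 2 groups alone. In all, 5 of the 10 did not overlap between unstressed and TAC METTL5-cKO hearts, against 19.8% of genes.

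Ccn4 and Ccn3 were not called here. For Ccn4, unstressed METTL5-cKO hearts had 1.23 to 2.27 CPM and METTL5-cKO TAC hearts 1.45 to 2.45 CPM, a log2 difference of 0.06 (95% CI -0.39 to 0.52, adjusted p = 0.875). Ccn3, Yap1, Tead1 and Amotl2 differed by -0.22, 0.08, 0.15 and -0.11 on the log2 scale, with adjusted p from 0.431 to 0.671.

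Whether TAC moved a gene more in METTL5-cKO than in control hearts was asked with an interaction term in 1 fit of the 16 libraries of both experiments. By edgeR none of the 10 genes passed, against 0.00586% of all genes, which is 1 gene of 17070. The difference of the TAC differences was 1.42 for Ccn1 (SE 0.267, 95% CI 0.85 to 1.98, adjusted p = 0.120), 1.85 for Ccn2 (SE 0.440, 95% CI 0.92 to 2.79, adjusted p = 0.131) and 2.33 for Ccn5 (SE 0.672, 95% CI 0.90 to 3.76, adjusted p = 0.183). All 3 intervals excluded 0 and 4 genes, with Ccn3 at -0.62, had an unadjusted p under 0.05. DESeq2 called Ccn1, Ccn2 and Ccn5, with adjusted p of 0.000401, 0.00631 and 0.0295, where 1.25% of the genes with an adjusted p were called. Without METTL5-cKO TAC library 4, edgeR called the same 3 genes, with adjusted p of 0.0120, 0.0118 and 0.00931, and without METTL5-cKO TAC library 3 Ccn1 alone was called (0.0489). The Hippo-YAP genes had interaction terms between -0.11 and 0.36, with adjusted p from 0.457 to 0.889.

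**Figure D3:**
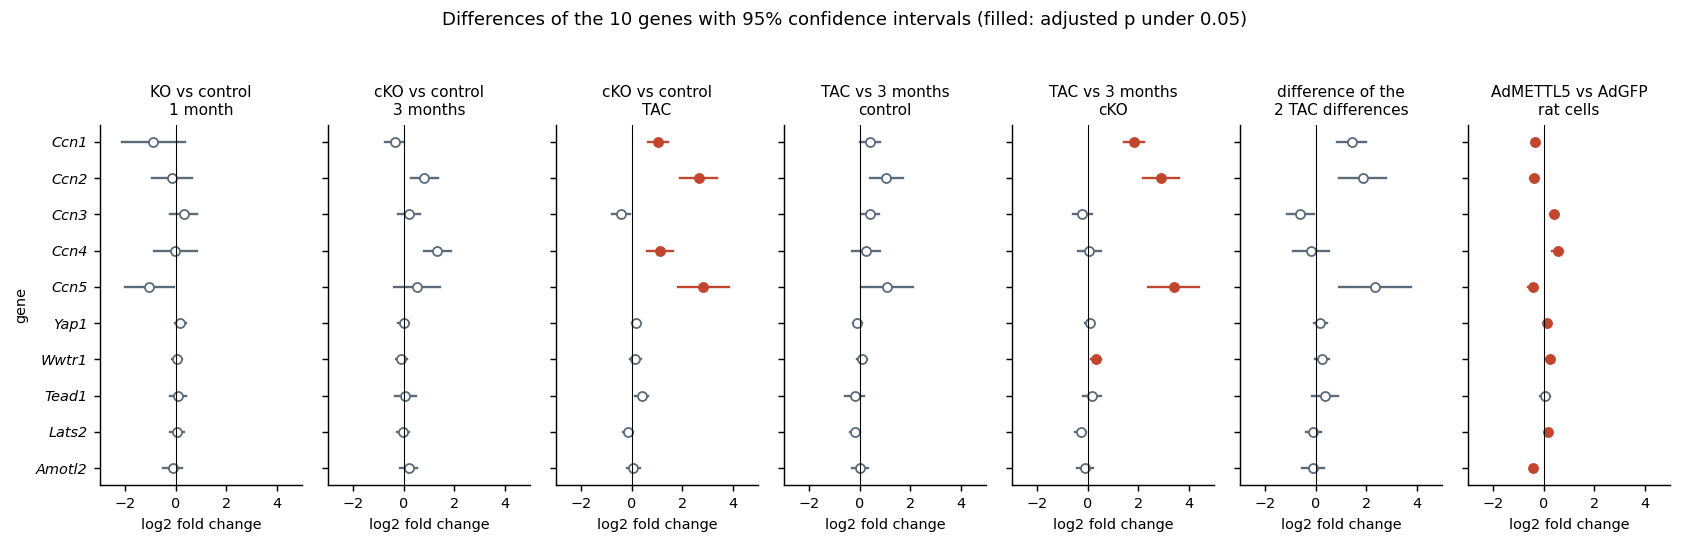
Log2 fold change (x axis) of the 10 genes (y axis) in 7 comparisons, as points with 95% confidence intervals from edgeR, filled red where the adjusted p was under 0.05 and open gray elsewhere. Calls were made in METTL5-cKO against control after TAC (4 genes), in METTL5-cKO after TAC against unstressed METTL5-cKO (4 genes) and in NRVMs (9 genes), where all differences were under 2-fold.

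In unstressed 3-month hearts none of the 10 genes was called between METTL5-cKO and control, against 0.0732% of 16391 genes. Ccn4 had 0.810, 0.707, 0.731 and 0.531 CPM in controls and 2.27, 1.89, 1.23 and 1.60 CPM in METTL5-cKO hearts, from 12 to 18 and 28 to 52 counts. The groups did not overlap, which was so for 4.23% of all genes, and the exact permutation test gave p = 0.0286, the smallest that 4 against 4 libraries allow. Its log2 difference of 1.33 (SE 0.240, 95% CI 0.79 to 1.86) had an adjusted p of 0.159 in edgeR and of 0.0266 in DESeq2, which called 0.599% of the genes with an adjusted p. The paper, which tested with DESeq2, lists Ccn4 among the genes higher in METTL5-cKO hearts of this age. The size was about that of the Ccn4 difference after TAC, 1.12, and the interaction term was -0.19 (95% CI -0.89 to 0.52).

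Ccn2 in unstressed hearts was at 26.7 to 58.5 CPM in controls and 51.6 to 74.4 CPM in METTL5-cKO, with 1 control library inside the METTL5-cKO range. Its log2 difference was 0.81 (SE 0.243, 95% CI 0.27 to 1.36, adjusted p = 0.452), and Ccn2 and Ccn4 were the 2 of the 10 with an unadjusted p under 0.05. Ccn1 differed by -0.36 (95% CI -0.74 to 0.01), in the direction opposite to that after TAC, with an adjusted p of 0.725. Ccn5 varied more among METTL5-cKO hearts, at 1.76 to 8.45 CPM, than among controls, at 2.52 to 3.54 CPM (log2 0.52, 95% CI -0.41 to 1.45). Ccn3 differed by 0.20 and the 5 Hippo-YAP genes by -0.10 to 0.19, with adjusted p from 0.933 to 0.999.

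At 1 month none of the 10 genes was called between METTL5-KO and control hearts, against 0.00612% of 16329 genes, and all 10 overlapped between the groups, where 3.04% of all genes did not. The largest difference was that of Ccn5, at 2.49, 0.767, 0.897 and 0.944 CPM in controls and 0.820, 0.740, 0.517 and 0.418 CPM in METTL5-KO. Its log2 difference of -1.05 (SE 0.431, 95% CI -2.02 to -0.08) had an unadjusted p of 0.0365 and an adjusted p of 0.973, and 1 control library carried much of it.

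Ccn1 at 1 month had 97.8, 76.1, 27.8 and 22.2 CPM in controls and 60.9, 22.5, 16.7 and 20.5 CPM in METTL5-KO hearts, a log2 difference of -0.89 (95% CI -2.13 to 0.35, adjusted p = 0.973). The 3 high libraries, control 1, control 2 and METTL5-KO 1, were those with the most Fos and Egr1, immediate early genes chosen here after their values were seen. Fos was at 28.0, 46.5 and 37.5 CPM in these 3 and at 2.12 to 6.13 CPM in the other 5 libraries of that age, and Egr1 was at 97.7, 173 and 154 CPM in the 3 and at 12.3 to 33.5 CPM in the others. Jun and Junb, looked at with them, were also highest in these 3 libraries. Atf3, likewise looked at, was not, at 2.95, 6.34 and 7.52 CPM in the 3 and 2.67 to 10.6 CPM in the others. The part of this in the Ccn1 values was not tested. The Hippo-YAP genes at 1 month differed by -0.13 to 0.18 on the log2 scale, with Yap1 at 35.9 to 42.6 CPM in controls and 42.3 to 47.2 CPM in METTL5-KO hearts (log2 0.18, 95% CI -0.02 to 0.39).

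**Figure D4:**
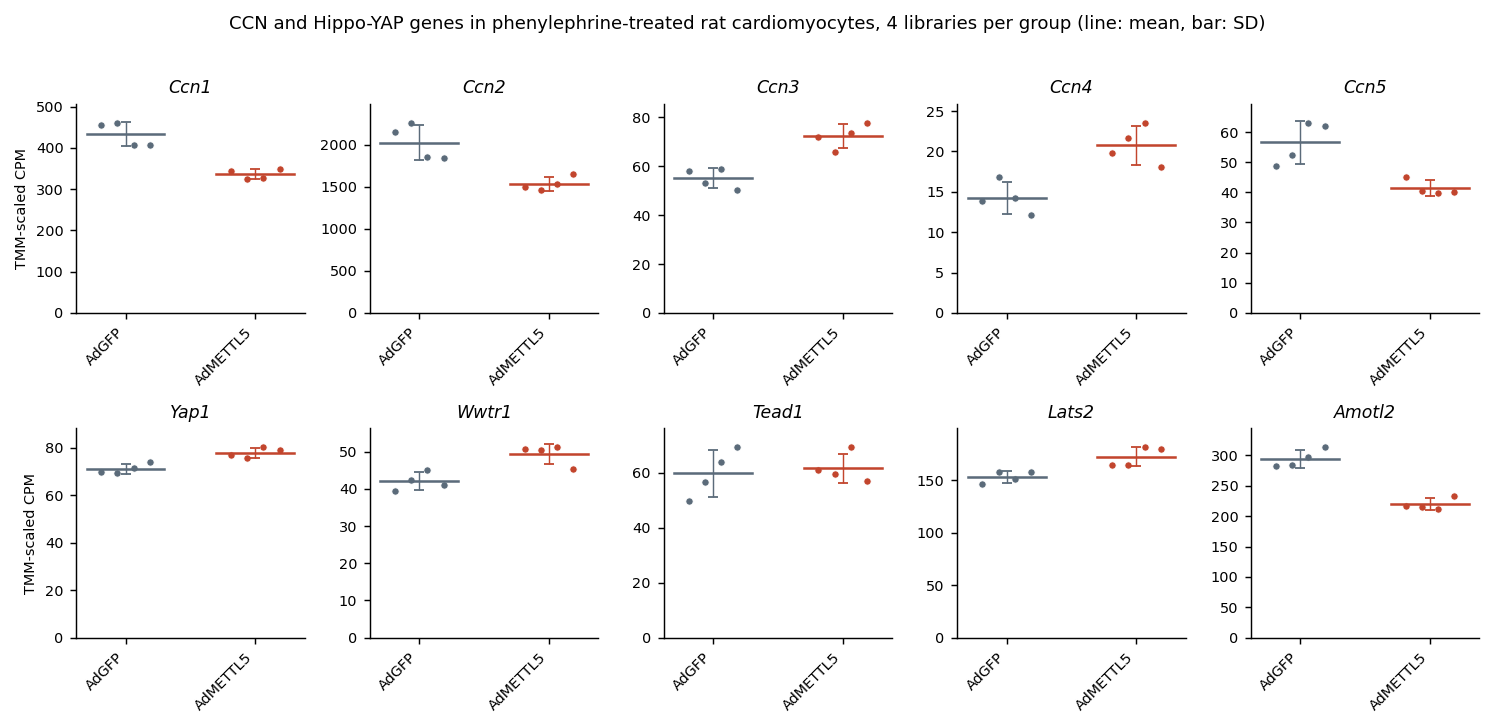
TMM-scaled CPM (axes from 0) of the 10 genes in 4 AdGFP (gray) and 4 AdMETTL5 (red) libraries of phenylephrine-treated NRVMs, with a line at the mean and a bar for the SD. Ccn1, Ccn2, Ccn5 and Amotl2 were lower in all 4 AdMETTL5 libraries than in any AdGFP library, Ccn3, Ccn4, Yap1, Wwtr1 and Lats2 were higher, and Tead1 overlapped.

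In the NRVMs analysed here the effect of METTL5 was studied in the other direction, by overexpression under PE. Between AdMETTL5 and AdGFP 9 of the 10 genes were called, against 52.8% of 15041 genes, and the groups did not overlap for these 9, against 48.4%. Of these, 4 were lower, against 25.7% of all genes called lower, and 5 higher, against 27.1%. None of the 9 changed by over 2-fold, against 5.85% of all genes.

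Among the genes that were lower, Ccn2 had 2145, 2260, 1853 and 1837 CPM under AdGFP and 1498, 1461, 1529 and 1645 CPM under AdMETTL5. Each AdMETTL5 library was below the lowest AdGFP library, and Ccn2 fell 1.32-fold (log2 -0.40, SE 0.0730, 95% CI -0.56 to -0.24, adjusted p = 0.000627). Ccn1 had 456, 461, 407 and 408 CPM under AdGFP and 344, 324, 327 and 350 CPM under AdMETTL5 (log2 -0.37, SE 0.0549, adjusted p = 0.000147). Ccn5 had 48.6, 52.5, 63.1 and 62.1 CPM and 45.2, 40.5, 39.8 and 40.1 CPM (log2 -0.45, SE 0.0843, adjusted p = 0.000742). Amotl2, the junction protein gene, had 283, 284, 297 and 313 CPM and 217, 216, 213 and 234 CPM (log2 -0.42, SE 0.0496, adjusted p = 2.23e-05). All 4 genes were thus lower in each AdMETTL5 library than in any AdGFP library.

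Among the genes that were higher, Ccn4 had 12.1 to 16.8 CPM under AdGFP and 18.1 to 23.6 CPM under AdMETTL5 (log2 0.54, SE 0.106, adjusted p = 0.00099), and Ccn3 had 50.3 to 58.9 and 65.7 to 77.7 CPM (log2 0.39, SE 0.0654, adjusted p = 0.000318). The CCN family was therefore split, with 2 genes higher and 3 lower. Wwtr1 had 39.4, 42.3, 45.2 and 41.2 CPM and 50.6, 50.3, 51.1 and 45.3 CPM (log2 0.23, SE 0.0586, adjusted p = 0.0054), and Lats2 146 to 158 and 164 to 181 CPM (log2 0.17, SE 0.0493, adjusted p = 0.0119). Yap1 had 69.3 to 74.1 and 75.7 to 80.2 CPM, the smallest of the called differences (log2 0.13, SE 0.0438, adjusted p = 0.0237), and its call was lost without AdGFP library 1 (adjusted p = 0.0539), AdGFP library 2 (0.0664) or AdMETTL5 library 3 (0.0699). Tead1 differed by 0.04 (95% CI -0.16 to 0.25, adjusted p = 0.725).

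Markers of other cells were present in the NRVM libraries too. The sum of 7 fibroblast markers was 8891 to 9393 CPM under AdGFP and 7218 to 7945 CPM under AdMETTL5, of which 6 were called lower, and all 8 cardiomyocyte markers were called lower, where 25.7% of all genes were, with sums of 18580 to 21978 CPM and 8513 to 9489 CPM. Of 6 activated fibroblast markers 3 were higher and 3 lower, with sums of 2634 to 3084 and 2904 to 3047 CPM. Of 5 macrophage markers tested 3 were lower and Cd163 was at 0 in both groups, all 4 epicardial markers and 2 of 6 markers of smooth muscle cells and pericytes were lower, and 1 of 5 endothelial markers was higher. The part of these cells in the NRVM values was not tested. Scaling by library size alone moved the median log2 difference of all genes by 0.14 in NRVMs and 0.15 in METTL5-cKO TAC against control TAC, and no direction given above for a called gene changed with it.

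The other genes of the pathway were counted from lists chosen with earlier results of these data known. A list of 22 YAP/TAZ target genes, which holds Ccn1, Ccn2, Lats2 and Amotl2, had 8 of 21 tested genes called higher and none lower in METTL5-cKO TAC against control TAC, where 6.57% of all genes were called higher and 12.7% in either direction, with a median log2 difference of 0.42 beside -0.0035 over all genes. Ankrd1, a cardiac stretch-responsive repressor, had 754 to 977 CPM in control TAC and 1754 to 3997 CPM in METTL5-cKO TAC (log2 1.81, SE 0.230, adjusted p = 0.0056). Ccdc80, a secreted matrix protein gene, had 46.8 to 58.7 and 77.2 to 127 CPM (log2 1.03, SE 0.145, adjusted p = 0.0072). Both were thus higher in each METTL5-cKO library than in any control library, and the remaining called genes of the list besides the CCN pair were Tgfb2, Igfbp3, Axl and Nt5e.

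Between TAC and unstressed METTL5-cKO hearts, 11 of 21 genes of this list were higher and 2 lower, against 10.2% of all genes called higher and 19.1% called in all, and the smallest adjusted p were those of Ccn1, Ccdc80 (log2 1.21) and Ccn2. In controls after TAC, and between the genotypes at 1 and 3 months, 0 genes of the list were called. In NRVMs 4 of 21 were higher and 8 lower, against 27.1% and 25.7% of all genes, so that the 12 called genes were close to the 52.8% called among all genes, and the median was -0.09 beside -0.0022 over all genes. There Ankrd1 fell from 5790 to 6886 CPM under AdGFP to 1205 to 1432 CPM under AdMETTL5 (log2 -2.30, SE 0.0794), whereas Fjx1, a secreted regulator of planar polarity, rose from 16.6 to 20.2 CPM to 32.3 to 37.3 CPM (log2 0.90, SE 0.0731).

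**Figure D5:**
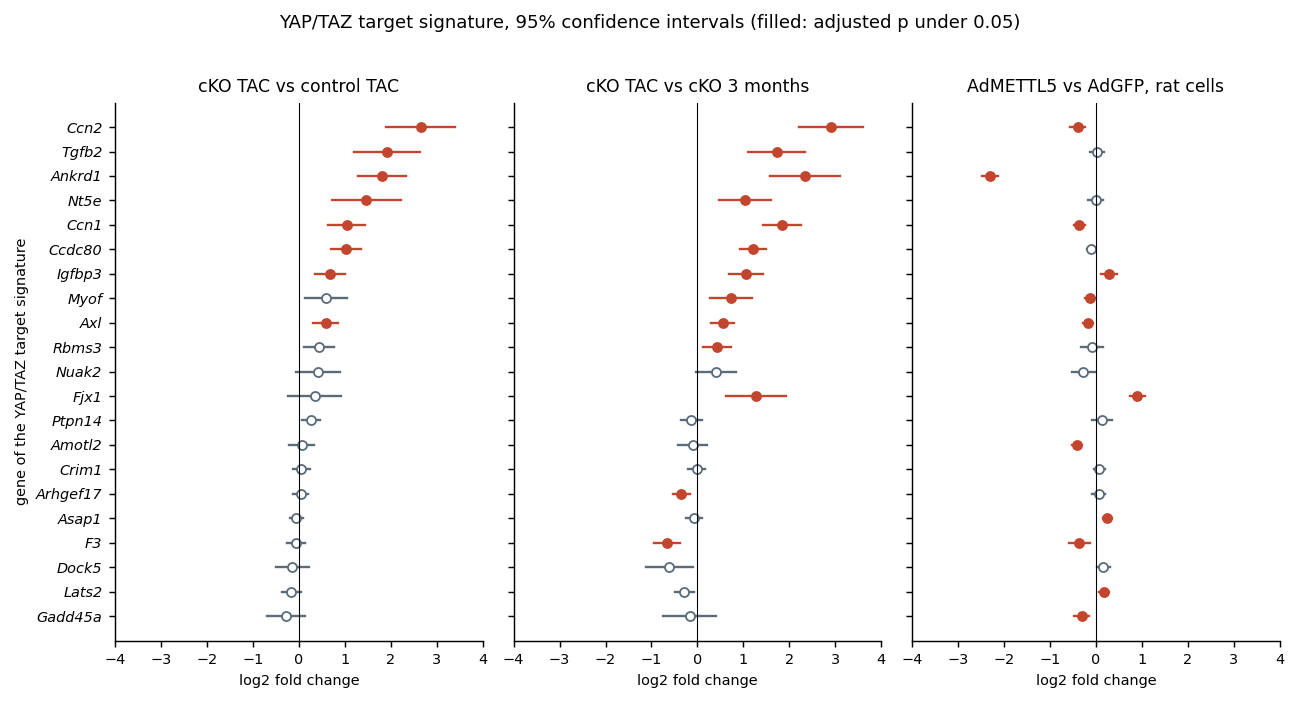
Log2 fold change (x axis) with 95% confidence intervals of the tested genes of the YAP/TAZ target list (y axis, ordered by the first panel) in METTL5-cKO TAC against control TAC, in METTL5-cKO TAC against unstressed METTL5-cKO and in AdMETTL5 against AdGFP, filled red where the adjusted p was under 0.05. The first panel holds 8 called genes, all higher, the second 11 higher and 2 lower, and the third 4 higher and 8 lower, with Ankrd1 at -2.30.

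Of 26 Hippo kinases and adaptors 25 were tested. In METTL5-cKO TAC against control TAC, 3 were higher and 1 lower, where 12.7% of all genes were called, with a median of 0.12 beside -0.0035 over all genes. The atypical cadherin gene Fat1 had 10.5 to 12.7 CPM in control TAC and 15.9 to 32.6 CPM in METTL5-cKO TAC (log2 1.15, SE 0.195, adjusted p = 0.0116), its relative Fat4 was lower (log2 -0.56, SE 0.118, adjusted p = 0.0199), and Limd1, a LIM protein gene whose product binds LATS kinases, was higher (log2 0.31, SE 0.0784, adjusted p = 0.0344). In METTL5-cKO hearts after TAC against unstressed ones 7 were higher and 0 lower, against 10.2% of all genes called higher, and the smallest adjusted p were those of Amot (log2 1.56), Fat1 (log2 0.66) and Dchs1 (log2 0.50). In NRVMs 7 were higher and 6 lower, close to the 27.1% and 25.7% of all genes, among them Stk4, which encodes the Hippo kinase MST1 (log2 0.67), and Nf2, which encodes merlin (log2 -0.35). None was called in the other comparisons.

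Of 10 TEAD factors and cofactors, Vgll3, a TEAD cofactor gene, was the 1 of 8 tested that was called in METTL5-cKO TAC against control TAC, where 12.7% of all genes were called, at 2.49 to 3.06 and 3.25 to 10.7 CPM (log2 1.44, SE 0.301, adjusted p = 0.0189). It was also higher in METTL5-cKO hearts after TAC than in unstressed ones (log2 1.50), where Wwtr1 was the only other call of the list and 19.1% of all genes were called. In NRVMs 5 of 9 were higher and none lower, against 27.1% and 25.7% of all genes, with Tead2 at 23.9 to 29.2 CPM under AdGFP and 41.7 to 49.3 CPM under AdMETTL5 (log2 0.78). Vgll2 had 0 counts in all AdGFP libraries and 13 to 28 in the AdMETTL5 libraries.

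Of 16 receptors that CCN proteins are known to bind, 15 were tested in hearts. In METTL5-cKO TAC against control TAC, 6 were higher and 1 lower, where 6.57% of all genes were called higher and 12.7% in all, with a median of 0.36 on the log2 scale beside -0.0035 over all genes. Lrp1, a large endocytic receptor, had 72.9 to 77.2 CPM in control TAC and 111 to 197 CPM in METTL5-cKO TAC (log2 1.03, SE 0.146, adjusted p = 0.0072), the integrin subunit gene Itgb5 was higher (log2 0.76, SE 0.169, adjusted p = 0.0224), and Notch1 was lower (log2 -0.53, SE 0.125, adjusted p = 0.0279). In METTL5-cKO hearts after TAC against unstressed ones 4 were higher and 0 lower, against 10.2% of all genes called higher, and the smallest adjusted p were those of Itga5 (log2 0.78), Lrp1 (log2 0.86) and Itgb5 (log2 0.74). In NRVMs 6 of 14 were higher and 4 lower, against 27.1% and 25.7% of all genes, with the laminin receptor gene Itga6 at 109 to 131 and 251 to 286 CPM (log2 1.18) and Itga5 lower (log2 -0.42).

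The genes with the pattern most like Ccn2 over the 24 heart libraries, by Pearson's r of log2 CPM among 17596 genes, were Dync1li1 (0.948), Qsox1 (0.947), Efhd2 (0.946), Gdf15 (0.942) and Itgbl1 (0.934). For Ccn5 they were Ptprn (0.963), Pbxip1 (0.950), Ace (0.949), Serpinb6a (0.948) and Snx10 (0.947). Ccn5 stood at rank 84 for Ccn2, with r = 0.862, and Ccn2 at rank 135 for Ccn5, while Ccn1 stood at rank 1085 for Ccn2 (r = 0.648). The points share 6 groups, and the 4 METTL5-cKO TAC libraries lay above all others in both genes.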

How the data were processed

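RNA was sequenced from whole hearts (24 libraries) and NRVMs (8 libraries), in 8 groups of 4. The authors aligned the reads to GRCm38 or Rnor_6.0 with HISAT2 (2.0.4 in the submitters' processing notes) and counted them per gene with StringTie (2.1.4). The deposited values are estimated counts in whole numbers, not normalized, in 4 tables, and the strand setting and annotation release are not given in the sources used here. Depth was 14324700 to 21804907 counts per library, and no pair of libraries agreed within sampling noise.

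From these counts, genes were filtered with filterByExpr (minimum count 10, minimum total 15), scaled by TMM and tested with edgeR 4.0.16 (quasi-likelihood, R 4.3.3), in each table alone or, for TAC against unstressed hearts and the interaction, in 1 joint fit of 16 libraries. A gene was called at a Benjamini-Hochberg adjusted p under 0.05 over all genes tested. SE is the absolute log2 fold change over the square root of F. CPM in hearts were scaled over all 24 libraries together. The exact permutation test used the 70 labelings of mean log2 CPM (prior count 2), two-sided. The fits were tested on simulated data with 200 changed genes. Alternatives were DESeq2 1.42.0, other scaling, other filters, each library left out, 2 groups alone, a replicate block and other thresholds.

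The members and lists were chosen with earlier results of these data known. Named were the 10 genes, Mettl5, at most the 3 called genes with the smallest adjusted p per list and comparison, and the 5 genes most correlated with Ccn2 and with Ccn5. Tgfb2, Igfbp3, Axl, Nt5e, the marker genes, Fos, Egr1, Jun, Junb, Atf3 and Nf2 in hearts were named after their values were seen. Where a symbol had several rows, the row with the most counts was used. Of 55487 mouse gene identifiers 55227 matched the annotation. Promoter sequences are from RefSeq (GRCm38.p6).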

Additional observations from a re-analysis of the deposited data

Results flagged for a closer look

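In 8 of the 80 groups of 4 libraries (10 genes in 8 groups), the highest or lowest library lay so far from the nearest other that the gap exceeded 0.829 of the group's range, Dixon's 95% critical value. Chance gives about 1 in 20 such groups where the values are normal and the groups independent. The 10 genes share the same libraries and CPM need not be normal, so that rate may not hold here. At 1 month, the control group had 1 high library for Ccn2 (87.1 CPM), Ccn3 (2.89 CPM) and Ccn5 (2.49 CPM) and 1 low library for Wwtr1 (54.0 CPM), and the METTL5-KO group had 1 high library for Ccn1 (60.9 CPM). The high Ccn2 and Ccn5 values and the low Wwtr1 value were all from control library 1, and that of Ccn3 from control library 4. After TAC, METTL5-cKO library 4 was low for Yap1 (42.8 CPM). In NRVMs, AdMETTL5 library 1 was high for Ccn5 (45.2 CPM) and AdMETTL5 library 4 low for Wwtr1 (45.3 CPM). The cause of these values was not tested.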

How the results depend on the processing

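Of the 10 genes, the number called was unchanged in most settings and moved by over 1.5 times in the following. In METTL5-KO against control at 1 month it was 0, and 1 at an unadjusted p under 0.05. In METTL5-cKO against control at 3 months it was 0, with 1 in DESeq2 and 2 at an unadjusted p under 0.05. In controls after TAC it was 0, with 1 in DESeq2, 1 in a fit of the 2 groups alone and 4 at an unadjusted p under 0.05. For the interaction it was 0, with 3 in DESeq2, 4 at an unadjusted p under 0.05 and 0 to 3 when single libraries were left out, the 3 being Ccn1, Ccn2 and Ccn5 without METTL5-cKO TAC library 4. In NRVMs it was 9, and 0 with a log2 fold change over 1 required. Leaving out single libraries gave 3 to 6 called genes in METTL5-cKO TAC against control TAC, where the main count was 4, so this count moved by no more than 1.5 times.

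At 1 month, deviations from the group mean correlated at 0.241, 0.123, -0.108 and 0.0843 between same-numbered libraries of both groups. Between differently numbered ones they correlated at -0.289 to 0.196. So few pairs cannot decide whether the replicate numbers of the labels pair the libraries, and the main fit did not pair them. With the replicate numbers as a block, the 1-month log2 differences of Ccn2 and Ccn4 turned to 0.016 and 0.055, both near 0 as before, and no gene was called. No paired analysis was possible for the other comparisons because their columns carry no replicate number of the labels.

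Scaling by library size alone turned 3 uncalled differences, to 0.043 for Yap1 and 0.006 for Lats2 in METTL5-cKO against control at 3 months and to -0.040 for Amotl2 in controls after TAC. When single libraries were left out, uncalled differences crossed 0 within these log2 ranges: at 1 month Ccn2 -0.33 to 0.41, Ccn4 -0.22 to 0.39, Wwtr1 -0.0087 to 0.084, Tead1 -0.040 to 0.16, Lats2 -0.025 to 0.16 and Amotl2 -0.22 to 0.0058, at 3 months Ccn5 -0.080 to 0.78, Yap1 -0.057 to 0.051, Tead1 -0.076 to 0.19 and Lats2 -0.090 to 0.041, in METTL5-cKO TAC against control TAC Amotl2 -0.072 to 0.12, in NRVMs Tead1 -0.036 to 0.12, in controls after TAC Amotl2 -0.072 to 0.088 and in METTL5-cKO after TAC Ccn4 -0.12 to 0.21. No called difference turned its direction. The cause of these changes was not tested. Counts of 5 to 62 per heart library limit the precision for Ccn4.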

Other observations

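Nf2, which encodes merlin, an upstream activator of the Hippo kinases, had 2 separate levels among the heart libraries, which was noticed after its values were seen. In METTL5-cKO hearts at 3 months it was at 69.4, 57.0, 69.4 and 10.6 CPM, and after TAC at 71.6, 69.7, 65.4 and 13.7 CPM, while the control hearts at 3 months had 47.0 to 74.3 CPM and after TAC 47.1 to 52.8 CPM. At 1 month it was at 39.1 and 38.5 CPM in control libraries 2 and 3 and at 7.39 to 11.1 CPM in the other control and all METTL5-KO libraries. Neither METTL5-cKO comparison called Nf2. Library 4 of METTL5-cKO TAC, low in Nf2, was also the lowest of its group in Ccn2, Ccn5, Yap1 and Tead1. Whether the estimated gene counts of Nf2 reflect its transcripts in these libraries was not tested.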
